A study of Arabidopsis thaliana with 12 samples.

Results

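The transcripts described here are those that stood higher in ethylene-overproducing Arabidopsis thaliana seedlings and came back more than 50% of the way to the wild-type level under each of 4 treatments. There are 117 such probe sets among the 22746 of the array that are not controls. They were chosen on measured values, on the scale of log2(signal + offset), with an offset at the 20th percentile of all signals, which keeps dim signals from giving large ratios. The signal had to exceed 100 on at least 2 arrays, and eto1-4 had to exceed Col-0 by 1 or more in both equally numbered replicate pairs. The share of that shift left, which is treated minus Col-0 divided by eto1-4 minus Col-0, had to lie under 50% for every treatment. Of 14660 probe sets bright enough, 224 (1.53%) were higher in eto1-4 in both pairs, and 123 of these met the limit under all 4 treatments. RTE1, ARL, CYP718, XTH26, AT5G19890 and AT4G38410 were then left out, which gives the 117. ARR16 and UPB1, also to be left out, did not meet the limit, with a largest share left of 51.2% and 96.7%.

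The study set transcripts of an ethylene mutant grown with hit compounds, named as ethylene antagonists, beside those of the untreated mutant and the wild type. Whole seedlings were grown in the dark for 3 days on MS medium. There were 2 arrays for each of 6 groups: the wild type Col-0, the mutant eto1-4 (in the Col-0 ecotype) without treatment, and eto1-4 with 10 µM of 9393, 9370, 7303 or AVG. The treated groups were all eto1-4, so no compound was tested on the wild type, and seedlings that differ in shape or organ proportions are compared as whole plants. AVG is aminoethoxyvinylglycine, an inhibitor of ACC synthase and related enzymes, and the other compounds are known here by their codes alone. In whole seedlings, fewer cells of a type and less RNA per cell cannot be told apart.

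Ethylene is made from S-adenosylmethionine through ACC by ACC synthase and ACC oxidase, and ETO1 marks a class of ACC synthases for degradation. Receptors in the endoplasmic reticulum membrane sense the gas, and the signal passes through EIN2 to the transcription factors EIN3 and EIL1. Dark-grown seedlings with excess ethylene have a short root, a short and swollen hypocotyl and a tightened apical hook, and ethylene also promotes root hairs.

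Each array gives 1 signal per probe set on a linear scale, made by MAS5 and scaled by the authors so that the trimmed mean is the same on every array. The study describes the replicates as independent sets of array analyses and does not say whether the seedlings were grown separately. The p-values therefore cover the spread between these arrays alone, and that spread may be technical. Poly-A spike RNA was found on 8 arrays and was missing from replicate 1 of Col-0, eto1-4, 9393 and 9370. The control probe set for 25S ribosomal RNA gave 208 and 266 in Col-0 but 494 to 12724 in the 5 groups of eto1-4 seedlings. Its part in the differences from Col-0 below was not tested. The summed signal of 3 photosynthesis genes (LHCB4.1, RCA and PORB) lay between 15693 and 39281 over the 12 arrays, so cotyledon transcripts were measured on each. The seed reserve gene PAP85 stood apart on eto1-4 replicate 1, where it read 6894, against 42.6 in replicate 2 and 5.11 to 264 elsewhere. OLEO3, an oleosin of seed oil bodies, read 3377 and 1825 in eto1-4 and 2601 and 1670.2 in Col-0, and did not stand apart in this way.

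Of the 117 probe sets, 52 name 1 gene each, 3 name several, and 62 carry no gene in the platform table and stay unnamed. The difference between eto1-4 and Col-0 had a median of 1.66 on the log2 scale and ran from 1.04 to 4.08. It was at least 2 for 30 probe sets and at least 3 for 6. These differences chose the members and are given as a description, without a test. In 15 members the signal passed 100 on the 2 eto1-4 arrays and on no other, so these entered by the group in which they are high. The named ones were AT3G28310, AT1G53080, AT3G60650, AT4G18650 and GH9B12. All 117 were bright enough for the tests between treatments, and 58 passed 100 on all 12 arrays.

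**Figure D1:**
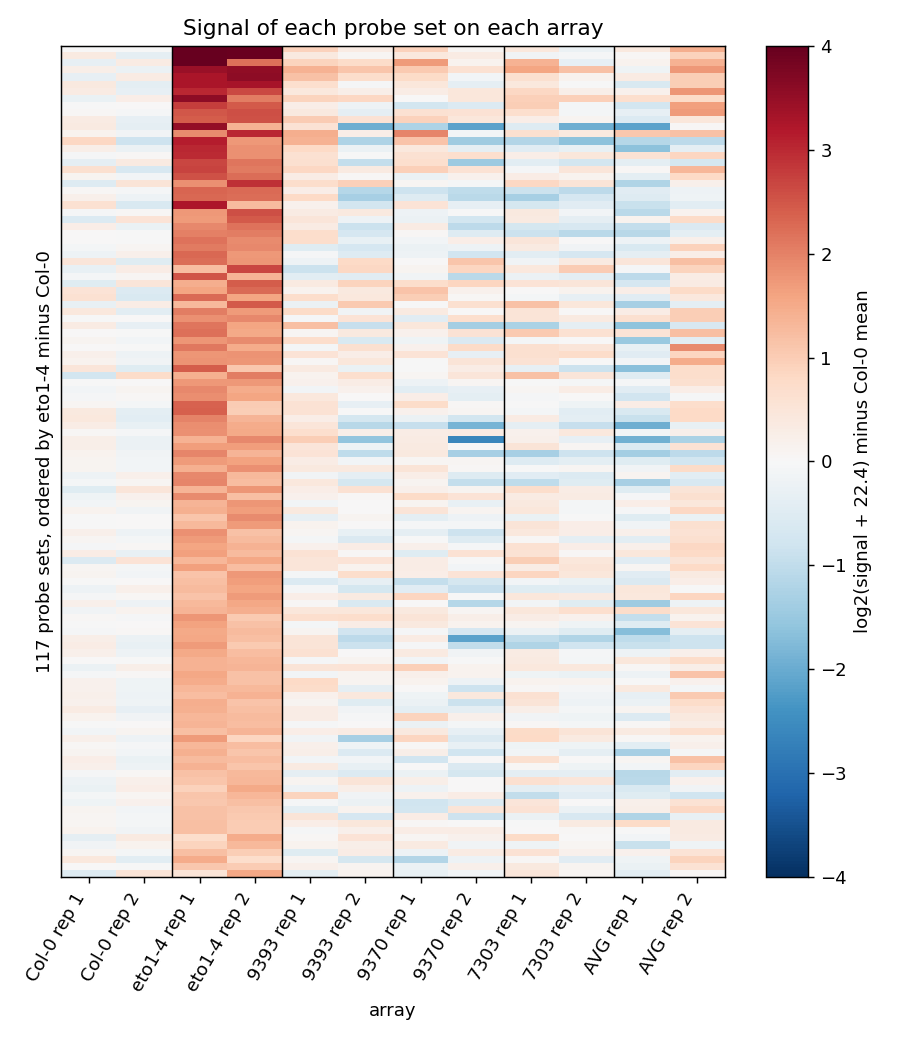
Each row is 1 of the 117 probe sets and each column 1 of the 12 arrays; colour gives log2(signal + offset) minus the Col-0 mean, with the scale ending at 4 in either direction. The 2 eto1-4 columns are red throughout by the choice of rows, while treated columns lie near 0, with AVG replicate 1 mostly bluer and AVG replicate 2 mostly redder.

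Just inside the threshold on the difference, the smaller of the 2 pair differences was 1.01, 1.02 and 1.02 for 3 unnamed probe sets. Just outside it, AT2G29310 stood at 0.999, followed by probe sets at 0.992 and 0.986. The largest shares left among members were 49.8%, 49.4% and 49.2%, in unnamed probe sets. AT5G57760 at 50.1% and AT4G35720 at 50.3% lay just outside, followed by an unnamed probe set at 51.7%. The second highest signal was 105, 133 and 134 in the dimmest members, and 95.7, 93.2 (AT5G59070) and 73.6 in the probe sets just below the limit.

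Of the 101 raised probe sets that did not meet the limit under every treatment, 85 kept at least 50% of the shift under AVG, 66 under 7303, 37 under 9370 and 37 under 9393. A probe set could be counted under several treatments, and 25 kept at least 50% under all 4. AVG alone kept 28 out, against 8 for 7303, 3 for 9370 and 1 for 9393. The share left under AVG was thus the one most often over the limit.

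Both probe sets with a difference of at least 4 were not listed with a gene. The first, at 4.08, read 80.8 and 79.2 in replicates 1 and 2 of Col-0, an order kept for all pairs of values below. It read 1893 and 1552 in eto1-4, 172 and 107 under 9393, 171 and 85.7 under 9370, 115 and 65.1 under 7303, and 111 and 256 under AVG. The highest treated array, AVG replicate 2, was far below either eto1-4 array. Over the 62 unlisted probe sets the share left, averaged over the treatments, had a median of 12.4% and ran from -51.3% to 34.99%. Over the 52 named genes the median was 0.581% and the range -47.6% to 32.8%.

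Among genes with a name, the largest difference in the weaker pair was that of AT3G28310. It read 53.5 and 22.6 in Col-0, 542 and 552 in eto1-4, 71.5 and 33.8 under 9393, 56.9 and 23.4 under 9370, 55.9 and 35.2 under 7303, and 15.7 and 92.4 under AVG. The eto1-4 arrays agreed closely with each other and lay far above the 10 other arrays. On the log2 scale eto1-4 was higher by 2.89 in the first pair and 3.67 in the second, and 1.31% (9370) to 9.55% (9393) of the shift was left under treatment.

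Expansins, which loosen cell walls without cutting their polymers, were represented by EXPA9 and EXPA18. EXPA9 read 836 and 859 in Col-0, 5942 and 4701 in eto1-4, 1018 and 725 under 9393, 497 and 571 under 9370, 1712 and 802 under 7303, and 495 and 2685 under AVG. Under 9370 both arrays lay below both Col-0 arrays, with a share left of -24.8%, where a value under 0 means below the Col-0 mean. The AVG arrays fell on either side of Col-0, and AVG replicate 2 stood well above it. EXPA18, an expansin of root hair cells, read 134 and 234 in Col-0 and 306 and 543 in eto1-4. Under treatment it lay between 164 and 318, so that 7303 replicate 1 at 318 overlapped eto1-4 replicate 1. Both Col-0 and eto1-4 were higher in replicate 2 for this gene, and the difference was 1.07 in the first pair and 1.14 in the second.

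Enzymes that act on pectin and glucans made up a second wall group of 4 genes, each higher in eto1-4 by 1.42 to 2.01 on the log2 scale. Family names of genes known by a locus tag alone are given here and below as background. GH9B12, a glycosyl hydrolase of the endoglucanase family, read 44.5 and 64.4 in Col-0, 350 and 231 in eto1-4, and 22.1 to 69.8 on the 8 treated arrays. The pectin methylesterase gene AT3G43270 read 596 and 608 in Col-0, 1414 and 1960 in eto1-4, 400 and 480 under 9393, 299 and 362 under 9370, 561 and 502 under 7303, and 398 and 733 under AVG. All of these treated arrays but AVG replicate 2 lay below both Col-0 arrays. The pectate lyase genes differed in how far they came back. AT4G13210 read 170 and 125 in Col-0 and 391 and 468 in eto1-4, and under each treatment its mean lay below Col-0, with shares left from -56.7% (AVG) to -19.8% (9393). AT3G24670 read 285 and 329 in Col-0, 814 and 1083 in eto1-4 and 244 to 431 under treatment, and its shares left ran from -6.57% (9370) to 23.9% (AVG). AT5G06630, of the extensin family of structural wall proteins, read 142 and 194 in Col-0, 385 and 448 in eto1-4, and 66.8 to 271 under treatment. Its probe set may also bind relatives, since extensin genes share repeats.

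Class III peroxidases, secreted enzymes that use hydrogen peroxide and can stiffen or loosen walls, numbered 4. AT3G49960 read 47.7 and 118 in Col-0, 329 and 723 in eto1-4, 139 and 170 under 9393, 81.6 and 71.1 under 9370, 156 and 120 under 7303, and 20.6 and 93.0 under AVG. Replicate 2 was higher in both untreated groups, as it was for EXPA18. The same held for AT4G26010, which read 577 and 1144 in Col-0, 2118 and 2840 in eto1-4, and 572 to 1339 on the treated arrays. AT1G30870 read 374 and 803 in Col-0 and 801 and 1666 in eto1-4, so that Col-0 replicate 2 was as high as eto1-4 replicate 1 and the groups overlapped. AT5G64120, annotated as PRX71, read 909 and 695 in Col-0, 2633 and 1460 in eto1-4, 721 and 305 under 9393, 1473 and 531 under 9370, 1413 and 1036 under 7303, and 818 and 877 under AVG. Its treated arrays were spread from well below Col-0 to the level of eto1-4 replicate 2, with a share left of -57.1% under 9393 and 46.3% under 7303.

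**Figure D2:**
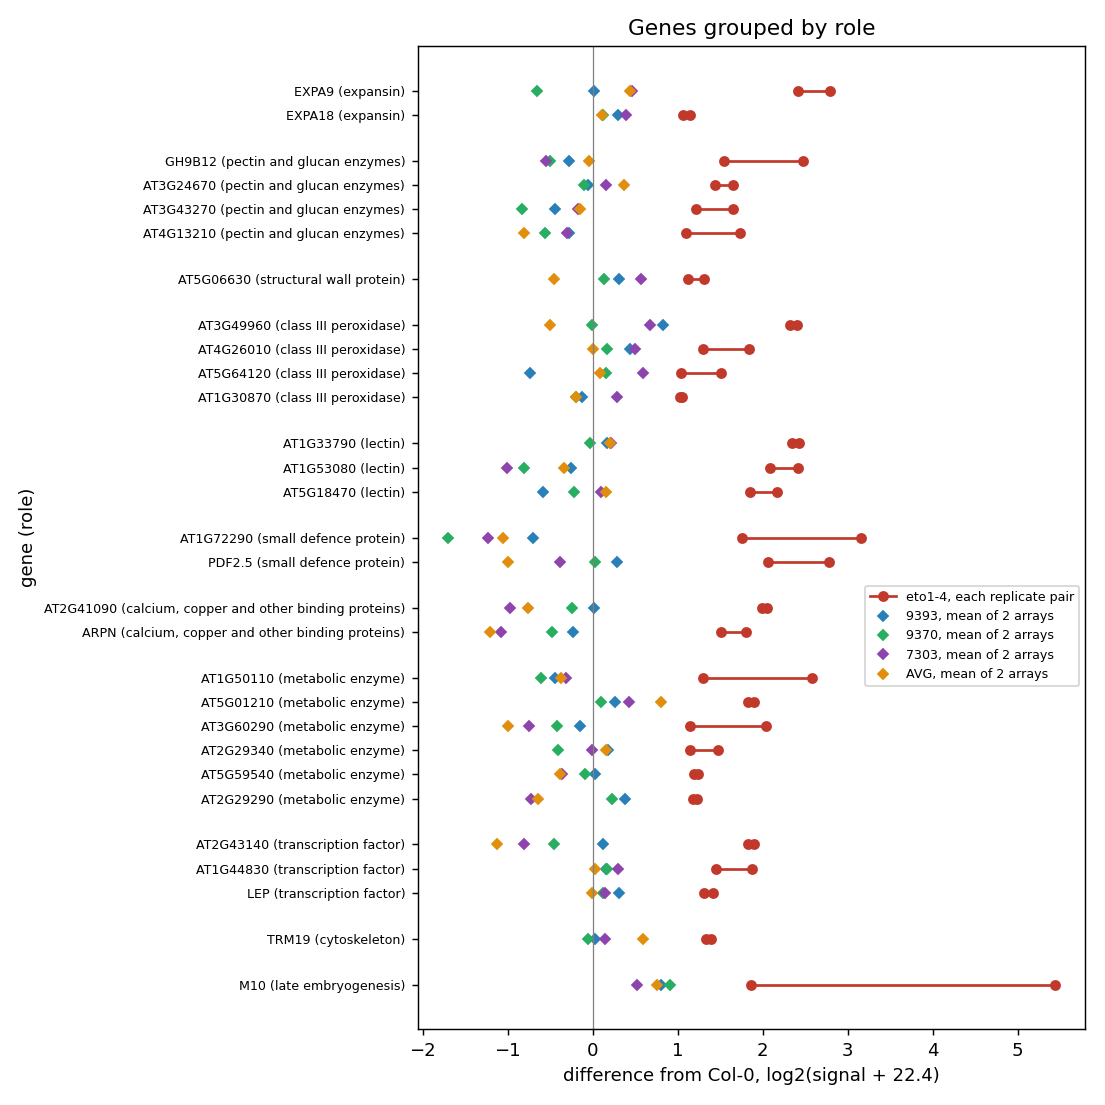
For 29 genes grouped by role, joined red points give eto1-4 minus Col-0 in each of the 2 replicate pairs and diamonds give the mean of 2 treated arrays minus the Col-0 mean, all on the log2(signal + offset) scale. Diamonds lie on both sides of 0, and M10 and AT1G72290 have the 2 eto1-4 pairs farthest apart.

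Lectins, proteins that bind sugars, included AT1G33790 of the jacalin type, AT1G53080 of the legume type and AT5G18470 of the mannose-binding type. AT1G33790 read 358 and 301 in Col-0, 2025 and 1622 in eto1-4, 409 and 336 under 9393, 274 and 373 under 9370, 408 and 362 under 7303, and 247 and 588 under AVG. Apart from AVG replicate 2, its treated arrays lay within 247 to 409, close to the wild type. AT1G53080 was dim outside eto1-4: it read 56.3 and 37.3 in Col-0 and 312 and 298 in eto1-4, and 4.99 to 97.0 under treatment, where 9393 gave 97.0 and 5.18. Group means under the offset, as here, make the size of the shift depend on that offset. AT5G18470 read 102 and 117 in Col-0, 538 and 481 in eto1-4, 71.2 and 59.7 under 9393, 90.0 and 90.9 under 9370, 145 and 96.5 under 7303, and 64.7 and 227 under AVG. Both arrays of 9393 and of 9370 were below both of Col-0.

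The defence-related peptides and inhibitors were PDF2.5, a defensin-like protein, and AT1G72290, a Kunitz-type protease inhibitor. PDF2.5 read 162 and 112 in Col-0, 1245 and 541 in eto1-4, 249 and 113 under 9393, 189 and 100.1 under 9370, 91.6 and 105 under 7303, and 28.1 and 101 under AVG. The shares left were 11.7% under 9393 and 1.22% under 9370, and lay under 0 at -15.8% under 7303 and -41.1% under AVG. AT1G72290 had the lowest share left of the named genes, at -47.6% averaged over the treatments. It read 114 and 59.8 in Col-0, 1196 and 255 in eto1-4, 134 and 4.90 under 9393, 22.2 and 1.47 under 9370, 51.6 and 5.15 under 7303, and 1.60 and 86.7 under AVG. Its eto1-4 replicates were far apart, and several treated arrays were near the bottom of the scale.

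A calcium-binding and a copper-binding protein lay below the wild type on both arrays of 7303 and of AVG. AT2G41090, a calmodulin-like protein, read 232 and 225 in Col-0, 992 and 1005 in eto1-4, 385 and 134 under 9393, 234 and 152 under 9370, 117 and 95.4 under 7303, and 92.9 and 167 under AVG. ARPN, the blue copper protein plantacyanin, read 422 and 339 in Col-0, 1535 and 1012 in eto1-4, 557 and 178 under 9393, 497 and 137 under 9370, 137 and 204 under 7303, and 134 and 170 under AVG. For both genes the unspiked replicate 1 of 9393 and of 9370 was at or above Col-0, while the spiked replicate 2 was below it. The shares left of ARPN were -14.1% under 9393, -28.8% under 9370, -64.6% under 7303 and -72.7% under AVG.

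Among enzymes of metabolism, AT5G01210 of the acyltransferase family read 1622 and 1634 in Col-0, 5809 and 6168 in eto1-4, 1585 and 2407 under 9393, 1173 and 2584 under 9370, 2354 and 2073 under 7303, and 2532 and 3246 under AVG. Its share left was highest under AVG, at 43.3%, and lowest under 9370, at 5.18%. AT1G50110, a branched-chain aminotransferase, read 91.9 and 103 in Col-0 and 660 and 286 in eto1-4, and all but AVG replicate 2 (126) of its treated arrays lay at or below 86.2. The oxygenase family genes AT5G59540 and AT3G60290 had shares left under 0 for 7303 (-29.6% and -47.1%) and AVG (-31.1% and -62.2%). The short-chain dehydrogenase genes AT2G29290 and AT2G29340 lie on chromosome 2 with 4 protein-coding genes between them in the TAIR10.1 gene order, one of them AT2G29310, just outside the threshold. AT2G29290 read 430 and 484 in Col-0, 1007 and 1167 in eto1-4, 864 and 415 under 9393, 514 and 566 under 9370, 219 and 327 under 7303, and 323 and 251 under AVG. All 4 arrays of 7303 and AVG lay below both wild-type arrays, both 9370 arrays lay above them, and the 9393 arrays fell on either side. AT2G29340 read 406 and 310 in Col-0, 926 and 904 in eto1-4 and 190 to 600 under treatment, with 9393 replicate 1 the highest. AT3G51400 and AT3G51410 are next to each other on chromosome 3 and both were members. No other pair of the 52 genes lay within 5 genes of one another.

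Transcription factors among the named members were AT1G44830 and LEP of the AP2/ERF family, whose members include factors that act downstream of ethylene, and AT2G43140 of the basic helix-loop-helix family. AT1G44830 read 320 and 230 in Col-0, 917 and 907 in eto1-4, and 181 to 418 under treatment. LEP, LEAFY PETIOLE, read 178 and 131 in Col-0, 476 and 386 in eto1-4, 243 and 156 under 9393, 205 and 138 under 9370, 199.5 and 146 under 7303, and 129 and 178 under AVG. Both arrays of each treatment lay below both eto1-4 arrays, and the share left ran from -0.67% (AVG) to 23.0% (9393). AT2G43140 read 69.9 and 37.3 in Col-0, 305 and 200.4 in eto1-4, 147 and 16.6 under 9393, 79.0 and 6.69 under 9370, 8.68 and 35.4 under 7303, and 2.11 and 24.8 under AVG. TRM19, a TON1 recruiting motif protein of the microtubule cytoskeleton, read 213 and 212 in Col-0, 597 and 567 in eto1-4, 207 and 230 under 9393, 197 and 210 under 9370, 280 and 201 under 7303, and 296 and 369 under AVG. Both AVG arrays of TRM19 lay above the 2 wild-type arrays.

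M10, a late embryogenesis abundant protein gene of seeds, read 11.2 and 31.5 in Col-0, 1439 and 174 in eto1-4, 56.7 and 47.7 under 9393, 115 and 24.2 under 9370, 88.7 and 11.5 under 7303, and 24.5 and 88.1 under AVG. Its difference was 5.44 in the first pair and 1.87 in the second. The first rests on eto1-4 replicate 1, the array on which the seed reserve gene PAP85 also stood apart. In all, 16 of the 117 members (13.7%) had eto1-4 replicates more than 1 apart on the log2 scale, against 5.59% of all tested probe sets. The named ones were AT3G49960, PDF2.5, M10, AT5G40590, AT4G18650, AT1G72290, AT1G50110, AT2G22880 and AT1G30870.

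**Figure D3:**
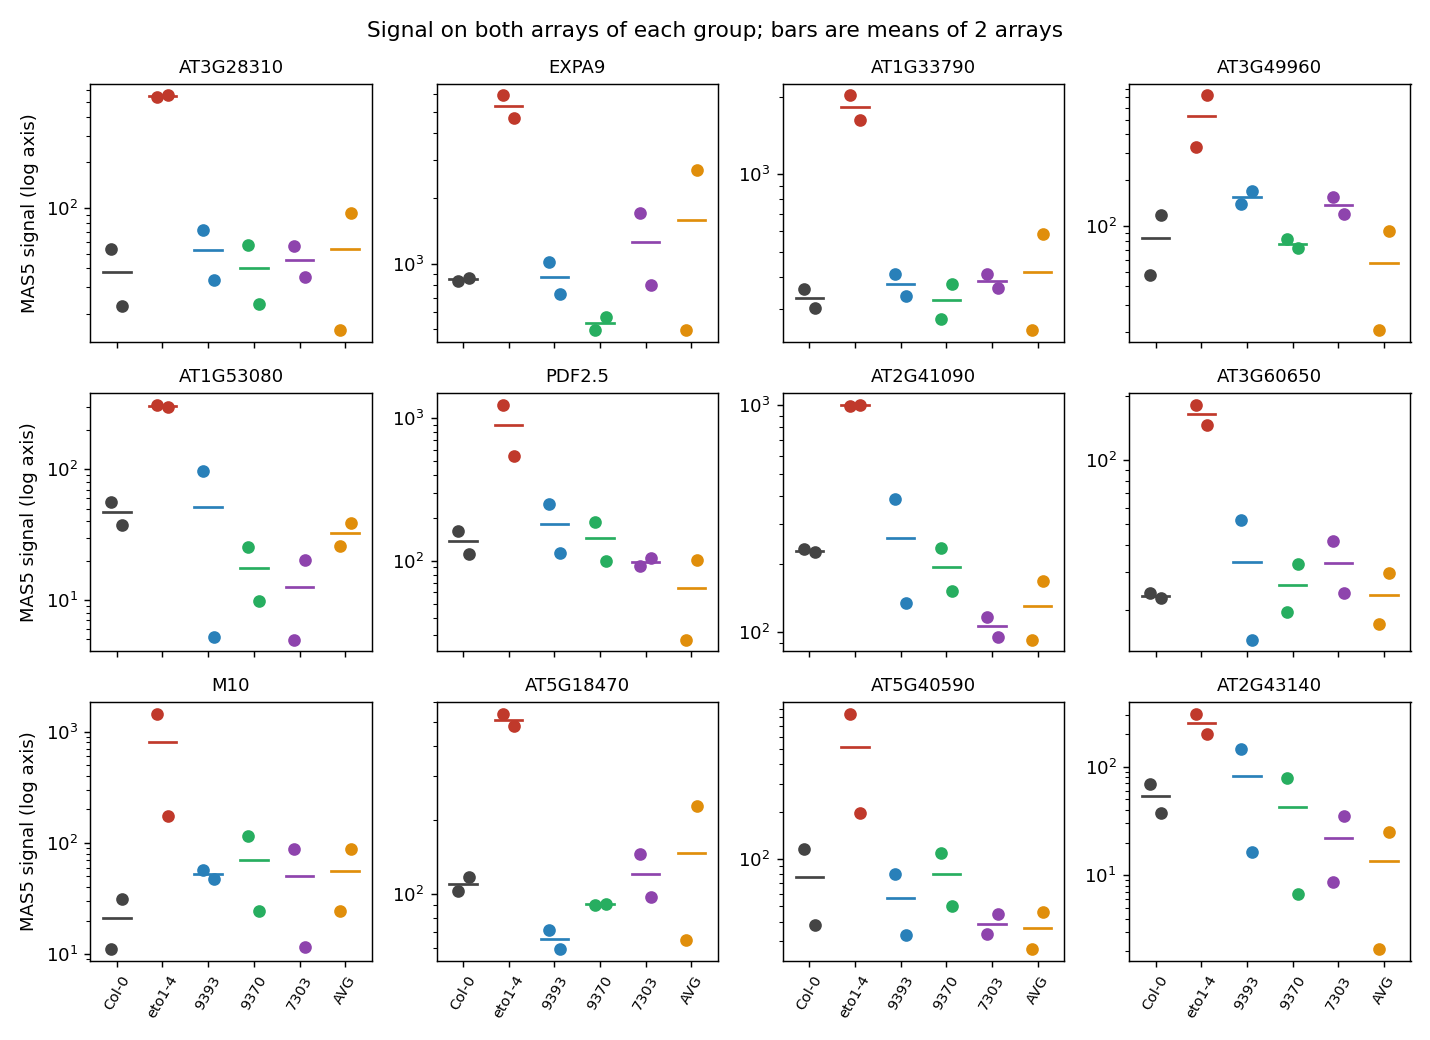
Signals on a log axis for the 12 named genes with the largest eto1-4 minus Col-0 difference in the weaker pair; points are single arrays and bars means of 2. The 2 eto1-4 points lie above all other points in each panel, which the choice of genes nearly fixes.

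The other genes with large differences have no role given here. AT3G60650 read 23.9 and 22.6 in Col-0, 182 and 146 in eto1-4, and 14.5 to 52.4 under treatment. AT5G40590 read 116 and 38.1 in Col-0, 836 and 196 in eto1-4, and 26.9 to 110 under treatment, so Col-0 replicate 1 was above every treated array. Lowest in the share left after AT1G72290 were AT3G17680 (-46.4% averaged over the treatments), ARPN (-45.0%), AT5G66440 (-42.1%) and AT3G60290 (-36.2%). AT5G66440 read 530 and 572 in Col-0, 1258 and 1375 in eto1-4, and 243 to 468 under treatment, so that every treated array lay below both wild-type arrays. At the other end were AT5G53710 (32.8%), AT1G26270 (31.0%), AT3G19200 (29.8%), AT4G18650 (24.8%) and AT1G11950 (22.0%). AT1G26270 read 594 and 581 in Col-0, 2785 and 1714 in eto1-4, 615 and 774 under 9393, 658 and 878 under 9370, 1242 and 902 under 7303, and 875 and 1392 under AVG, with every treated array above both wild-type arrays and below both of eto1-4.

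Over all 117 members the median share of the shift left was 7.14% under 9393, 2.93% under 9370, 6.71% under 7303 and 6.91% under AVG. The limit of 50% was part of the choice, so these medians are a description. The members' median difference from untreated eto1-4 was -1.55 under 9393, -1.65 under 9370, -1.61 under 7303 and -1.62 under AVG, on the log2 scale, against -0.01, 0.01, -0.05 and -0.04 over all 14830 tested probe sets. A raised probe set with under 50% of its shift left must lie below eto1-4, so this gap also follows from the choice. Shares under 0, that is a treated mean below Col-0, were found for 39 members under 9393, 55 under 9370, 49 under 7303 and 49 under AVG. For 22 members this held under all 4 treatments and for 38 under none. The named genes among the 22 were AT1G53080, AT1G72290, AT5G44580, GH9B12, ARPN, AT3G17680, AT1G50110, AT3G43270, AT5G66440, AT3G60290 and AT4G13210.

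Both eto1-4 arrays stood above all 10 other arrays for 111 of the 117 members, against 6.19% of all tested probe sets; the choice of members nearly fixes this. The named exceptions were EXPA18, AT5G64120 and AT1G30870. Counting single arrays, 69 members were below 50% of the shift on each of the 8 treated arrays, and 89 were so when AVG replicate 2 was not counted.

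**Figure D4:**
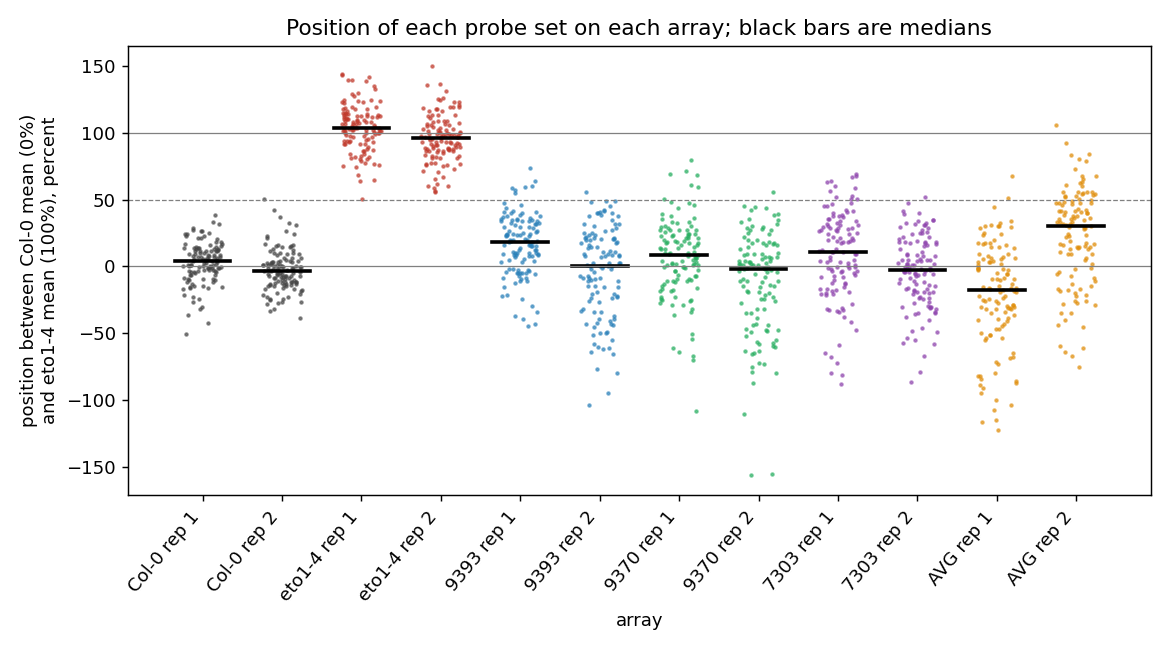
Each point is 1 of the 117 probe sets on 1 array, placed between the Col-0 mean (0%) and the eto1-4 mean (100%), with a dashed line at 50% and black bars at the medians. The median is -17.9% on AVG replicate 1 and 30.0% on AVG replicate 2, and between -2.60% and 18.0% on the other 6 treated arrays.

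The replicates of AVG differed most among these genes. The median position of the members was -17.9% on AVG replicate 1 and 30.0% on replicate 2, while it was 18.0% and 0.412% for 9393, 8.58% and -2.20% for 9370, and 11.0% and -2.60% for 7303. Replicate 2 of AVG was the higher of the pair for 109 of the 117 members (93.2%), against 56.9% of all tested probe sets. In 37 members (31.6%) the AVG arrays were more than 1 apart on the log2 scale, against 2.61% of all tested probe sets, and the members' median difference was 0.69 against 0.04. On AVG replicate 2, 26 members kept more than 50% of the shift, among them EXPA9, AT5G01210, AT1G26270, AT1G11950, TRM19, AT5G67020, AT1G17430 and AT4G01410. Replicate 1 was the higher for 8 members, of which AT3G51410, AT5G53710, AT2G29290 and AT2G29340 are named. The ethylene genes RTE1 (268 and 465) and ARL (990 and 2678), which met the values of the rule but were left out, were also higher on AVG replicate 2.

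Both AVG arrays carried the spike RNA. Their median signals were 156 and 167, their 25S signals 9513 and 7285, and the 3'/5' ratio of the GAPDH control was 1.46 and 1.38. Whether any of these bears on the difference was not tested. Without AVG replicate 1, 91 probe sets met the rule, all of them among the 117, and without AVG replicate 2, 134 did, of which 115 were among the 117. Without Col-0 replicate 2, 191 met it, and without eto1-4 replicate 2, 227, since 1 pair is then left to pass. For 9393 and 9370, where replicate 1 was unspiked and replicate 2 spiked, replicate 1 was the higher for 77 and 78 members. For 7303, with both arrays spiked, it was the higher for 84. Replicate 2 was thus the higher for 34.2%, 33.3% and 28.2% of the members under 9393, 9370 and 7303, against 53.3%, 53.3% and 46.5% of all tested probe sets. The GAPDH ratio was 1.60 to 2.02 on the unspiked arrays and 1.18 to 1.53 on the spiked arrays. Its part in these replicate differences was not tested.

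**Figure D5:**
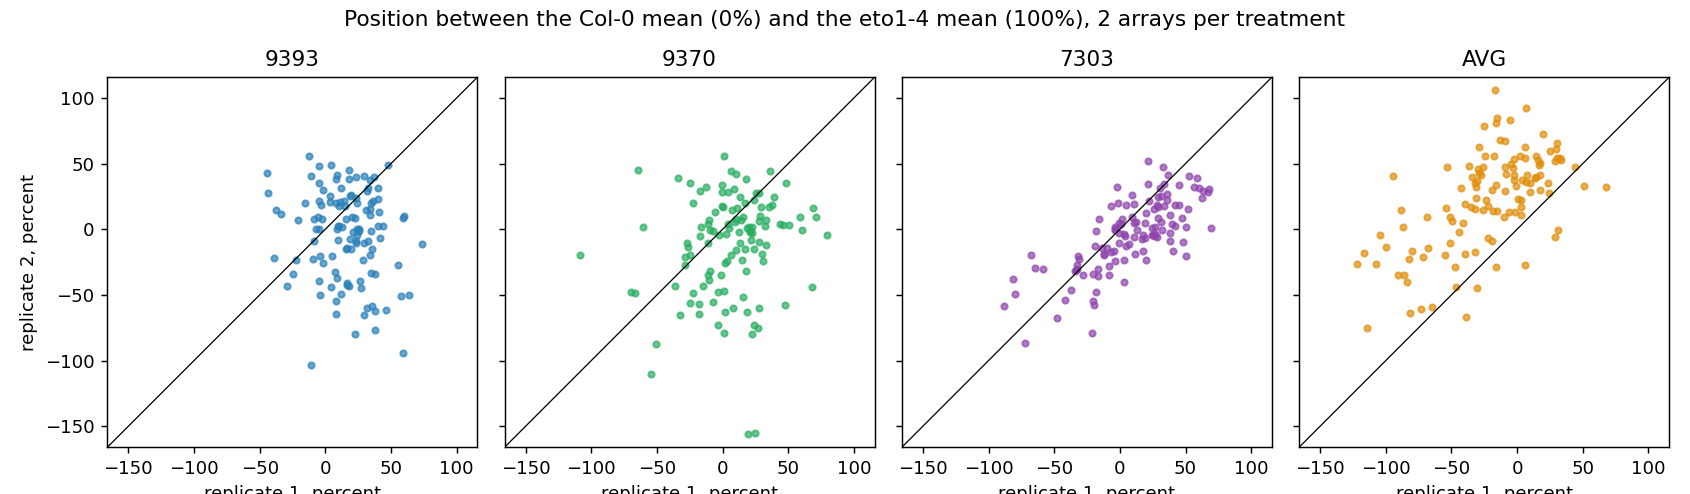
Each panel plots, for 1 treatment, the position of each of the 117 probe sets on replicate 1 (horizontal) and replicate 2 (vertical), as a percent of the way from the Col-0 mean to the eto1-4 mean, with the line of equal values. Under AVG, 109 of the 117 points lie above the line.

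The treatments, all at 10 µM, were then compared with each other in limma, fitted over all 14830 tested probe sets. The rule did not use these differences, though it put a ceiling on every treated mean and so narrowed them. In none of the 6 comparisons was a member called at an adjusted p under 0.05. Over all probe sets the share called was 0.00674% in 9393 against AVG and in 9370 against AVG, where THI2.2 was the 1 called, and 0.0% in the other 4 comparisons. At an unadjusted p under 0.05 there were 10 members in 9393 against AVG (8.55%, against 11.8% of all probe sets), 13 in 9370 against AVG (11.1% against 12.9%) and 5 in 7303 against AVG (4.27% against 3.96%). There was 1 in 9393 against 9370 (0.855% against 0.89%), 4 in 9393 against 7303 (3.42% against 5.13%) and 6 in 9370 against 7303 (5.13% against 6.47%). The members' shares lay near the background throughout. The members' median difference lay between -0.13 (9370 minus 7303) and 0.16 (9393 minus 9370) on the log2 scale. For a single member the standard error of a difference had a median of 0.38. The design does not show that the treatments act alike on these genes.

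The named members with the smallest p-values, chosen after the values were seen, were AT4G01410, AT3G51410, AT2G29290 and TRM19. AT4G01410 read 290 and 351 under 9370 against 604 and 786 under AVG. The difference was -1.06 ± 0.22 (SE), with a 95% interval from -1.56 to -0.56 and a limma adjusted p = 0.144. AT3G51410 read 337 and 244 under 9393 and 183 and 151 under AVG, a difference of 0.71 with an interval from 0.28 to 1.15 and a limma adjusted p = 0.234. For AT2G29290 the difference between 9393 and 7303 was 1.0996 (864 and 415 against 219 and 327), with an interval from 0.41 to 1.79 and a limma adjusted p = 0.873. TRM19 differed by -0.64 between 9370 and AVG, with an interval from -1.07 to -0.22 and a limma adjusted p = 0.204. In each case the arrays of the 2 treatments did not overlap, and none passed the test.

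Known ethylene genes were few among the named probe sets. Of 25 genes of ethylene perception and signalling on the list used, 5 were measured and none of these is a member. Measured means, here and below, that the gene was matched by its name on the list and that a tested probe set names it alone. Other genes of the lists may lie on probe sets without a gene, which include 62 of the members. The lists therefore do not show how many such genes are among the members. RTE1 and ARL were the 2 called higher in eto1-4 against Col-0 in limma, where 2.2% of all tested probe sets were called, and both are among the genes left out. Both met the values of the rule, which used these same groups, and so did XTH26. The calls of these genes, here and under treatment below, therefore give no separate support. EIN3 differed by 0.26 (limma adjusted p = 0.729), RTH by 0.26 and ETP2 by -0.08. Of 52 genes of root hair cells 46 were matched by name and 5 measured: EXPA18 is a member, XTH26 met the values but was left out, and EXPA7, CSLD2 and SCN1 are not members. The list also holds PER7 and PRX44, which are the peroxidase genes AT1G30870 and AT4G26010. Both are members, but they were not matched by name and so were not counted here. EXPA7, the close relative of EXPA18, read 111 and 146 in Col-0 and 185 and 441 in eto1-4, a difference of 1.05 (limma adjusted p = 0.188). CSLD2 differed by 0.29 and SCN1 by 0.26. The 3 measured root hair genes that the values of the rule did not select thus had a median of 0.29, against -0.03 over all tested probe sets. Of 39 xyloglucan endotransglucosylases and expansins on a further list, 13 were measured. EXPA9 is the 1 member among them, and the list's median in eto1-4 against Col-0 was -0.25. Within it EXPB1 was called lower in eto1-4, at -1.93. This list does not hold EXPA7, EXPA18 and XTH26, which stand on the root hair list and differed by 1.05, 1.11 and 3.00. Of 18 seed reserve genes 3 were measured, and M10 is the 1 member. None of the 2 measured genes of iron and metal uptake, 6 of auxin response, 1 of cytokinin response (ARR16), 3 of photosynthesis or 3 reference genes is a member. Against untreated eto1-4, limma called 0.661% of all tested probe sets under 9393, 4.05% under 9370, 4.69% under 7303 and 5.32% under AVG. RTE1 and ARL were called lower under 9370 and 7303, and XTH26, a root hair xyloglucan endotransglucosylase, under 9370 (-2.38) and AVG (-2.99). On the xyloglucan and expansin list, EXPB1 was called higher under 9393 (1.26), 9370 (1.18) and 7303 (0.87). XTH19 was called lower under 9370 (-1.23), 7303 (-1.06) and AVG (-1.20), XTH33 under AVG (-1.60) and the member EXPA9 under 9370, whose groups the choice of members also used. The auxin-responsive gene LBD29 was called lower in eto1-4 against Col-0 (-1.58) and higher under 9370 (1.95) and 7303 (2.31), and IAA29 was called higher under 9370 (0.93). ARR16 was called higher in eto1-4 (2.60) and lower under 9370 (-1.91), and BGLU42 of the iron list was called lower under AVG (-0.89). No gene on the lists for ethylene synthesis, ethylene-induced genes and the hook, hairless epidermis, jasmonate, nitrate and phosphate uptake, endodermis and stele, or pollen and flower was measured by a tested probe set naming it alone.

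By chromosome, the 52 named members were 11 on chromosome 1, 8 on chromosome 2, 14 on chromosome 3, 4 on chromosome 4 and 15 on chromosome 5. Among all bright probe sets naming 1 gene the shares were 25.8%, 14.9%, 20.2%, 14.5% and 23.8%, against 21.2%, 15.4%, 26.9%, 7.69% and 28.8% of the members.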

How the data were processed

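Total RNA of whole seedlings was hybridised to Affymetrix ATH1 arrays, 2 per group. The deposited values are linear intensities (signals) that the authors made with MAS5, as the submitters' processing notes name it, in a version not given in the sources used here. Each array's 2% trimmed mean was 500.0, and no further scaling was applied. The log2 of each deposited signal plus an offset, the 20th percentile of all signals, was taken. A probe set was tested if it passed the 40th percentile of an array on 2 or more arrays. These 14830 were tested with limma 3.58.1 (lmFit, eBayes with trend, R 4.3.3; Python 3.11.15 for the rest) over all 12 arrays, with Benjamini-Hochberg adjustment and a threshold of 0.05. The script was tested on simulated data. Of 22746 probe sets, 13436 name 1 gene in the platform annotation, 503 several, and 8730 are not listed. The members and gene lists were chosen with earlier results of these data known. Named genes were the 12 with the largest difference in the weaker pair, the 5 lowest and 5 highest in the share left, members on a list, those near a threshold, and others by role. Alternatives changed the offset, filter, scaling, blocks and arrays. With 2 arrays per group, their number limits the precision. Promoter motifs were not analysed here.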

Additional observations from a re-analysis of the deposited data

Results flagged for a closer look

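The control probe set for 25S ribosomal RNA, which no comparison used, was higher on the arrays of eto1-4 seedlings than on those of Col-0. Its lowest signal on the 10 arrays of eto1-4 seedlings was 494, on 7303 replicate 2, against 208 and 266 on the Col-0 arrays. Its part in the differences from Col-0 was not tested.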

How the results depend on the processing

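The number of members was 117, and between 87 and 128 with offsets of 5 or 100, other signal minimums, quantile normalization or median centring. Taking only the share left from the spiked arrays, with the signal minimum and both replicate pairs on all arrays, gave 112. A limit of 25% on the share left gave 59. Leaving out each array in turn gave 91 to 227. The median share left under 9370 was -4.88% from the spiked arrays alone. Leaving out each array in turn, the median share ran from 0.412% to 18.0% under 9393, -2.63% to 8.58% under 9370, -2.60% to 11.0% under 7303 and -17.9% to 30.0% under AVG. No member was called between treatments under any alternative. The 1 probe set called between 9393 and AVG became 0 with spiked against unspiked arrays as a block, the spiked arrays alone, quantile normalization, an offset of 100 or no filter, and the 1 between 9370 and AVG became 0 under the same settings except quantile normalization. The cause was not tested. Leaving out each array gave 0 to 1, 0 to 3 and, for 7303 against AVG, 0 to 1. Equally numbered arrays did not deviate together throughout: over 15 pairs of groups the correlation ran from -0.27 to 0.78 and was over 0.1 in 5. All 5 lay among Col-0, eto1-4, 9393 and 9370, whose replicate 1 was unspiked. The highest were 9393 with 9370 (0.78), eto1-4 with 9393 (0.38) and eto1-4 with 9370 (0.31). The main comparison of 9393 with 9370 did not use this pairing. With the replicate block the counts were 1 for 9393 against AVG, 1 for 9370 against AVG and 0 for the other comparisons, so no count changed. That block fits 1 shift for all groups and cannot take up a deviation that only some share. Signals near the offset limit what can be said of dim genes: the eto1-4 minus Col-0 difference of AT3G60650 was 2.57 with an offset of 5 and 1.09 with 100. Among non-members on the xyloglucan and expansin list, the number called against untreated eto1-4 ran over the alternatives from 0 to 2 under 9393 and 9370 and from 0 to 3 under 7303 and AVG; for the auxin, cytokinin and iron lists no alternative was run.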
